A study of Homo sapiens with 4 samples.

Results

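Epithelial cells hold together through adherens junctions, tight junctions, desmosomes and gap junctions. Cadherins bind the neighbouring cell at adherens junctions and, as desmogleins and desmocollins, at desmosomes, where plaque proteins tie them to the keratin filaments inside the cell. Claudins and occludin seal the tight junction, connexins form the channels of gap junctions, and keratins assemble from pairs of a type I and a type II protein. Many genes of these families, though not all, are switched on by epithelial regulators and turned down when cells leave the epithelial state. The genes described here are EPCAM, the cadherins, claudins, connexins, desmosome genes, keratins, tight junction genes and the regulators ESRP1, ESRP2, GRHL2 and GRHL3. They were chosen by gene symbol, but with earlier results of these data known, among them that many were very low in RKO. Of the 7640 genes in the deposited table, 57 had such a symbol: 17 keratins, 7 cadherins, 7 tight junction and polarity genes, 6 connexins, 6 desmosomal plaque genes, 5 claudins, 4 desmosomal cadherins, 4 regulators and EPCAM.

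The study sequenced messenger RNA from the human colorectal cancer (CRC) cell lines RKO and HCT116, each carrying a short hairpin RNA (shRNA) against EZH2 or a control shRNA. EZH2 is the methyltransferase of a Polycomb repressive complex, which silences genes. There were 4 libraries, 1 each for RKO EZH2 knockdown, RKO control, HCT116 EZH2 knockdown and HCT116 control cells, and the labels do not say which hairpin was used or whether the lines were pools or clones. A knockdown within a line therefore sets 1 library against 1 other and has no replicate check, whereas RKO can be set against HCT116 with 2 libraries a side, which differ from each other in the hairpin and are not replicates of 1 condition.

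Levels are FPKM values, which divide fragments by transcript length and by the mapped depth of a library. Over the genes of the table, the expected counts behind them added up to 7898152 in the shallowest and 8185776 in the deepest library. EZH2 was at 6.61 FPKM in RKO knockdown cells against 33.6 FPKM in RKO control cells, and at 12.6 FPKM in HCT116 knockdown cells against 31.5 FPKM in HCT116 control cells. Its level was thus lower in the knockdown library of each line, as labelled. The table is a partial gene list, and its genes were not equally low in the lines: 17.3% and 18.8% of all genes were under 0.1 FPKM in the RKO knockdown and control libraries, against 3.18% and 3.01% in those of HCT116. Of 12 markers of colorectal epithelium, 7 were in the table, 6 of them among the 57 genes. Of these 7, KRT18, KRT8 and CDX2 were over 1 FPKM in RKO and EPCAM, CDH1, KRT19 and KRT20 were not. The intestinal transcription factor CDX2 was at 9.24 and 6.91 FPKM in RKO knockdown and control cells, against 8.95 and 10.7 FPKM in those of HCT116. Of other markers, the table held 1 of 6 for fibroblasts, 1 of 5 for endothelium and 3 of 4 for melanocytes or neurons. Those in the table stayed under 0.5 FPKM in RKO, and the rest cannot be judged. The fibroblast gene COL1A1 was at 4.05 and 4 FPKM in HCT116 knockdown and control cells. The melanocyte gene PMEL was at 2.38 and 2.13 FPKM in HCT116 knockdown and control cells. CD68, the macrophage marker and the only blood marker listed, was at 271 and 284 FPKM in RKO knockdown and control cells, against 3.54 and 3.24 FPKM in those of HCT116. Its part in the results was not tested.

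Most of the 57 genes were far lower in RKO than in HCT116 cells. In bulk RNA, fewer expressing cells and less RNA per cell cannot be told apart. The median gene was at 0.11 and 0.09 FPKM in RKO knockdown and control cells, against 9.02 and 8.98 FPKM in those of HCT116, while the median of all listed genes was 4.54 and 3.72 FPKM in RKO against 6.51 and 6.14 FPKM in HCT116. In RKO 21 genes of the set (36.8%) reached 1 FPKM in the knockdown library and 19 (33.3%) in the control library. In HCT116, 47 (82.5%) and 44 (77.2%) did. Of all listed genes, 67.8% and 66.1% reached 1 FPKM in the RKO knockdown and control libraries, against 82.2% and 81.4% in those of HCT116. Of the 44 genes that reached 1 FPKM in both HCT116 libraries, 26 (59.1%) were under 1 FPKM in both RKO libraries, against 20.6% of all listed genes that reached 1 FPKM in both HCT116 libraries. The reverse pattern, at least 1 FPKM in both RKO libraries and less in both HCT116 libraries, was seen for 1 of the 19 genes of the set on in RKO, KRT81, and for 5.17% of all listed genes that reached 1 FPKM in both RKO libraries. In all, 14 genes of the set had no count in either RKO library, and the share of all listed genes with none was not counted. Under 0.1 FPKM were 45.6% and 50.9% of the set in RKO knockdown and control cells, against 17.3% and 18.8% of all listed genes.

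The line difference was tested by edgeR's quasi-likelihood test with Benjamini-Hochberg adjustment over all 7433 genes with enough counts, of which 37.5% were called lower and 27.0% higher in RKO at an adjusted p of 0.05. Of the 57 genes 53 could be tested. RKO was lower for 41 and higher for 7 of them. The median difference of log2(FPKM + 1), RKO minus HCT116, was -1.63 over all 57 genes and -0.31 over all 7640 listed genes. Genes with a mean of at least 1 FPKM over the 4 libraries are called measured here, and 41 of the 57 were, of which 22 were under 1 FPKM in both RKO libraries. Both RKO libraries lay below both HCT116 libraries for 47 of the 57 genes and above them for 7, against 55.4% and 27.5% of all listed genes.

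**Figure D1:**
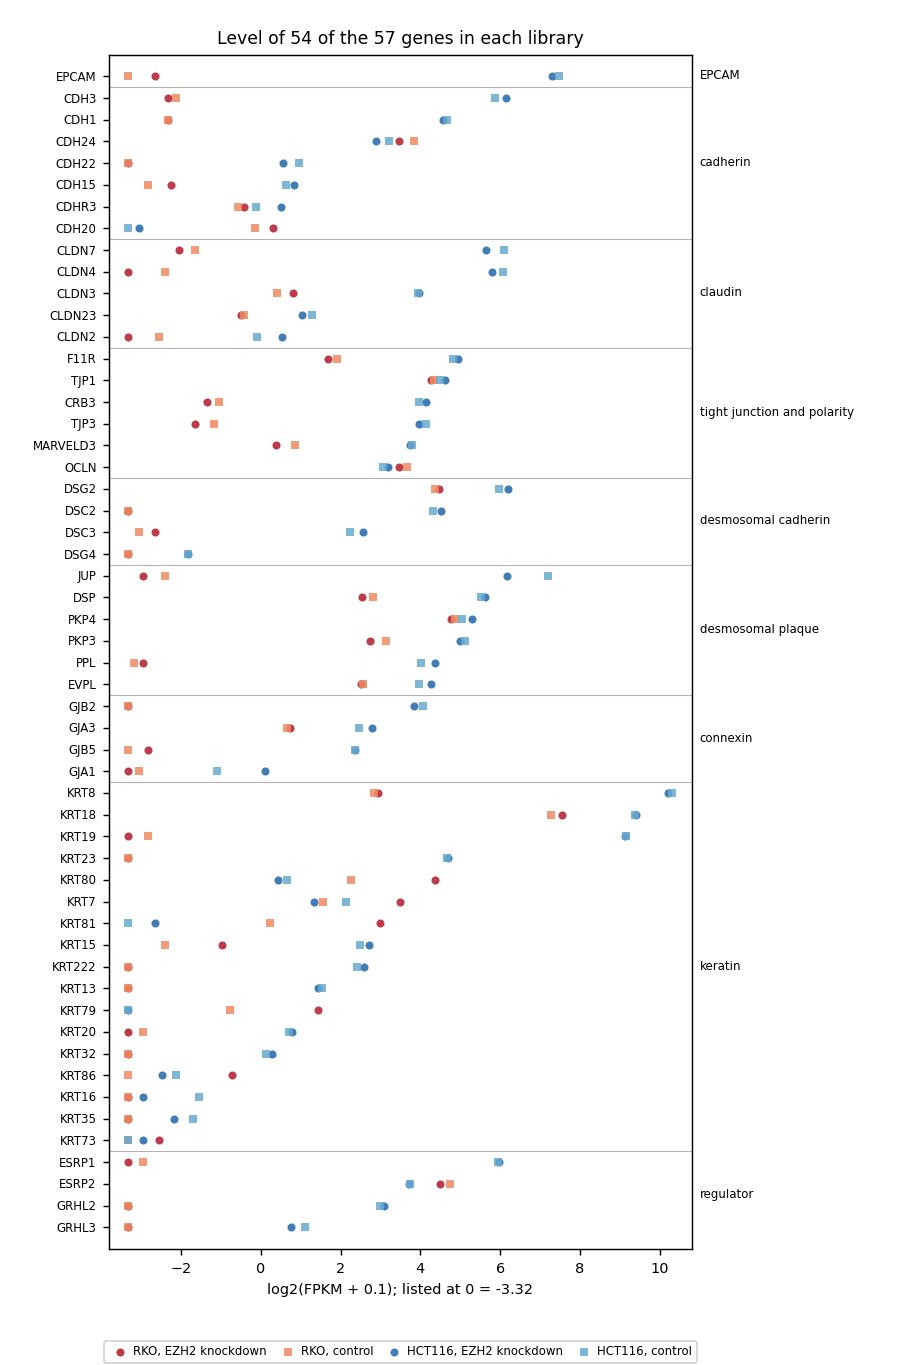
Level of 54 of the 57 genes, as log2(FPKM + 0.1), in the 4 libraries, grouped by class and sorted by the highest level. Points at the left edge are listed at 0. The RKO points of 24 and 27 of these genes (knockdown and control) lie under 0.1 FPKM, against 6 and 4 genes in HCT116, while KRT18, CDH24, DSG2, PKP4, TJP1, OCLN and ESRP2 keep levels above 10 FPKM in both RKO libraries.

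**Figure D2:**
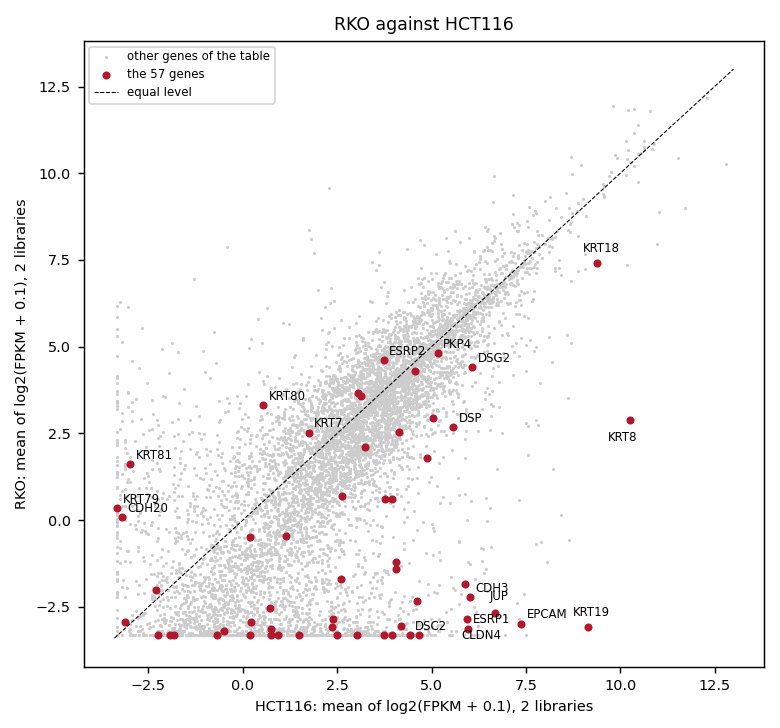
Mean of log2(FPKM + 0.1) over the 2 RKO libraries against that over the 2 HCT116 libraries, with the 57 genes in red, all other listed genes in grey and equal levels on the dashed line. KRT19, EPCAM, JUP, CLDN4 and ESRP1 lie at the bottom right, and KRT81, KRT79, CDH20 and KRT80 lie above the line.

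EPCAM and the classical epithelial cadherins were nearly silent in RKO. EPCAM, an adhesion protein of the epithelial surface, was at 0.06 and 0 FPKM in RKO knockdown and control cells, against 156 and 177 FPKM in those of HCT116 (edgeR adjusted p = 0.00037). These RKO values rest on 2 and 0 counts. CDH1, which encodes E-cadherin, the main cadherin of adherens junctions, was at 0.1 FPKM in both RKO libraries, against 23.7 and 25.3 FPKM in HCT116 knockdown and control cells (edgeR adjusted p = 0.00035). Its neighbour on chromosome 16, the P-cadherin gene CDH3, was at 0.1 and 0.13 FPKM in RKO knockdown and control cells, against 70.9 and 58.9 FPKM in those of HCT116 (edgeR adjusted p = 0.00035). No coding gene lies between CDH1 and CDH3, and both were low together. CDH24, a type II cadherin, went the other way, with 10.98 and 14.3 FPKM in RKO knockdown and control cells, against 7.29 and 9.23 FPKM in those of HCT116 (edgeR adjusted p = 0.010). It was the only cadherin that passed 2 FPKM in RKO. Of the remaining 4 cadherins, all under 2 FPKM in every library, CDH15 and CDH22 were lower, CDH20 was higher and CDHR3 was not called.

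All 5 claudins were lower in RKO. CLDN4 was at 0 and 0.09 FPKM in RKO knockdown and control cells, against 55.7 and 67.1 FPKM in those of HCT116 (edgeR adjusted p = 0.00044). Its neighbour CLDN3, with no coding gene between them on chromosome 7, was lower as well but was still measured in RKO. CLDN3 had 1.66 and 1.22 FPKM in RKO knockdown and control cells, against 15.5 and 15.4 FPKM in those of HCT116 (edgeR adjusted p = 0.00086). CLDN7 was at 0.14 and 0.22 FPKM in RKO knockdown and control cells, against 50.3 and 68.2 FPKM in those of HCT116 (edgeR adjusted p = 0.00035). CLDN2, a pore-forming claudin, and CLDN23 stayed under 3 FPKM in every library, and the call of CLDN23 was lost under DESeq2.

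The other tight junction genes split. The membrane protein gene OCLN (occludin) and the scaffold gene TJP1 were present in both lines. OCLN was at 10.9 and 12.7 FPKM in RKO knockdown and control cells, against 9.02 and 8.28 FPKM in those of HCT116. It was called higher in RKO by edgeR (adjusted p = 0.024) but not by limma on log2(FPKM + 1). TJP1 was at 19.2 and 20.2 FPKM in RKO knockdown and control cells, against 24.4 and 22.6 FPKM in those of HCT116. Its difference was not called (edgeR adjusted p = 0.64), and its sign depended on the scaling, since the fitted log2 fold change was 0.09 after TMM scaling and the difference of log2(FPKM + 1) was -0.25.

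The scaffold gene TJP3 and the polarity gene CRB3 were low in RKO. TJP3 was at 0.22 and 0.34 FPKM in RKO knockdown and control cells, against 15.6 and 17.5 FPKM in those of HCT116 (edgeR adjusted p = 0.00037). CRB3, the epithelial Crumbs protein of the apical membrane, was at 0.29 and 0.38 FPKM in RKO knockdown and control cells, against 17.6 and 15.4 FPKM in those of HCT116 (edgeR adjusted p = 0.00059). The junctional adhesion molecule gene F11R and the occludin relative MARVELD3 were lower in RKO but still above 1 FPKM there. F11R was at 3.11 and 3.67 FPKM in RKO knockdown and control cells, against 30.6 and 28.2 FPKM in those of HCT116, and its count is uncertain because another annotated gene holds 34.7% of the stretches of 50 bases in its transcripts. MARVELD3 was at 1.21 and 1.70 FPKM in RKO knockdown and control cells, against 13.3 and 13.8 FPKM in those of HCT116. Both differences were called by edgeR (adjusted p = 0.00078 for F11R and 0.00097 for MARVELD3).

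Desmosome genes were not equally low in RKO. DSG2, the desmoglein of simple epithelia, was at 22.1 and 20.5 FPKM in RKO knockdown and control cells, against 73.4 and 62.3 FPKM in those of HCT116 (edgeR adjusted p = 0.0019). Its partner DSC2, the desmocollin of simple epithelia, had no count in either RKO library, against 23.0 and 19.7 FPKM in HCT116 knockdown and control cells (edgeR adjusted p = 0.00044). Taking 3 counts per library as the limit of detection, DSC2 was at least 725-fold lower in RKO than in HCT116 between the knockdown libraries and at least 627-fold lower between the control libraries. The neighbouring gene DSC3 was at 0.06 and 0.02 FPKM in RKO knockdown and control cells, against 5.76 and 4.64 FPKM in those of HCT116 (edgeR adjusted p = 0.00037). A desmoglein was thus measured in RKO, while both listed desmocollins were under 0.1 FPKM. DSG4, the remaining desmosomal cadherin, did not pass 0.2 FPKM in any library, and its call was lost under DESeq2.

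Among the plaque genes, JUP and PPL were the ones silent in RKO. JUP encodes plakoglobin, which binds cadherins at both desmosomes and adherens junctions. It was at 0.03 and 0.09 FPKM in RKO knockdown and control cells, against 71.6 and 148 FPKM in those of HCT116 (edgeR adjusted p = 0.00035). PPL, the plakin periplakin, was at 0.03 and 0.01 FPKM in RKO knockdown and control cells, against 20.4 and 16.1 FPKM in those of HCT116 (edgeR adjusted p = 0.00035). The keratin linker DSP (desmoplakin) was at 5.74 and 6.93 FPKM in RKO knockdown and control cells, against 49.1 and 45.7 FPKM in those of HCT116 (edgeR adjusted p = 0.00083). PKP3, a plakophilin, was at 6.58 and 8.73 FPKM in RKO knockdown and control cells, against 31.5 and 34.4 FPKM in those of HCT116 (edgeR adjusted p = 0.0022). EVPL (envoplakin), the dimer partner of periplakin, was at 5.58 and 5.85 FPKM in RKO knockdown and control cells, against 19.3 and 15.6 FPKM in those of HCT116 (edgeR adjusted p = 0.0063). These plaque genes were therefore lower but measured. PKP4 was not called (edgeR adjusted p = 0.90), with 27.2 and 29.1 FPKM in RKO knockdown and control cells, against 38.9 and 33.1 FPKM in those of HCT116. Its fitted log2 fold change was 0.03, against a difference of -0.34 in log2(FPKM + 1).

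All 6 connexins were lower in RKO. GJB2 was at 14.3 and 16.8 FPKM in HCT116 knockdown and control cells and had no count in RKO, where it was at least 208-fold lower between the knockdown libraries and at least 246-fold lower between the control libraries (edgeR adjusted p = 0.00057). Its neighbour on chromosome 13, GJA3, was at 1.56 and 1.48 FPKM in RKO knockdown and control cells, against 6.78 and 5.43 FPKM in those of HCT116 (edgeR adjusted p = 0.0030), and was the only connexin over 1 FPKM in RKO. GJB5 had 1 and 0 counts in RKO knockdown and control cells, against 5.03 and 5.08 FPKM in those of HCT116. GJA1 stayed under 1 FPKM in every library.

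Keratins were the most abundant class, and their sum was 239 and 170 FPKM in RKO knockdown and control cells, against 2468 and 2544 FPKM in those of HCT116. Of the 13 keratins tested, 9 were lower and 3 higher in RKO. KRT8, the type II keratin of simple epithelia, was at 7.63 and 7.05 FPKM in RKO knockdown and control cells, against 1183 and 1262 FPKM in those of HCT116 (edgeR adjusted p = 0.00035). Its type I partner KRT18 was at 188 and 154 FPKM in RKO knockdown and control cells, against 675 and 667 FPKM in those of HCT116 (edgeR adjusted p = 0.00092). KRT8 and KRT18 are neighbours on chromosome 12, and the KRT18 level was 24.6 and 21.8 times that of KRT8 in RKO knockdown and control cells, against 0.571 and 0.529 times in those of HCT116. Other genes, led by pseudogenes, hold 10.1% of the stretches of 50 bases of KRT8 and 14.3% of those of KRT18, so the estimator can split reads of this pair.

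The summed keratin types were likewise uneven in RKO, where the type I sum was almost entirely KRT18. KRT18 alone gave 187.91 and 154.04 FPKM of type I sums of 188.32 and 154.2 FPKM in RKO knockdown and control cells. The sums are thus not independent of the KRT18 level above. The 10 type I keratins summed to 188 and 154 FPKM in RKO knockdown and control cells, against 1281 and 1276 FPKM in those of HCT116. The 7 type II keratins summed to 50.2 and 16.2 FPKM in RKO knockdown and control cells, against 1187 and 1268 FPKM in those of HCT116. Type I exceeded type II keratins 3.75-fold and 9.55-fold in RKO knockdown and control cells, against 1.08-fold and 1.01-fold in those of HCT116.

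KRT19, a type I keratin of simple epithelia, showed the lowest RKO level relative to HCT116 of all measured genes of the set. It was at 0 and 0.04 FPKM in RKO knockdown and control cells (0 and 1 counts), against 562 and 567 FPKM in those of HCT116 (edgeR adjusted p = 0.00035). KRT23 had no count in RKO, against 25.8 and 25.3 FPKM in HCT116 knockdown and control cells (edgeR adjusted p = 0.00051). KRT15 was at 0.41 and 0.09 FPKM in RKO knockdown and control cells, against 6.47 and 5.54 FPKM in those of HCT116 (edgeR adjusted p = 0.0021). These genes, with JUP, belong to chromosome 17. The higher keratins were of type II and lie on chromosome 12: KRT80, KRT81 and KRT79. KRT80 was at 20.5 and 4.68 FPKM in RKO knockdown and control cells, against 1.25 and 1.48 FPKM in those of HCT116 (edgeR adjusted p = 0.0094). KRT81, a hair keratin, was at 7.84 and 1.07 FPKM in RKO knockdown and control cells, against 0.06 and 0 FPKM in those of HCT116 (edgeR adjusted p = 0.00072). KRT79 was at 2.60 and 0.49 FPKM in RKO knockdown and control cells and had no count in HCT116 (edgeR adjusted p = 0.0043). KRT7 was not called (edgeR adjusted p = 0.19): it was higher in RKO between the knockdown libraries and lower between the control libraries.

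The regulators differed between paralogs. ESRP1, an epithelial splicing regulator, was at 0 and 0.03 FPKM in RKO knockdown and control cells, against 62.7 and 62.0 FPKM in those of HCT116 (edgeR adjusted p = 0.00037). Its paralog ESRP2 was higher in RKO, at 22.4 and 26.5 FPKM in knockdown and control cells, against 13.2 and 13.2 FPKM in those of HCT116 (edgeR adjusted p = 0.0036). The sum of the paralogs was 22.4 and 26.5 FPKM in RKO knockdown and control cells, against 75.8 and 75.3 FPKM in those of HCT116. GRHL2, a grainyhead transcription factor that activates junction genes, had no count in RKO, against 8.34 and 7.84 FPKM in HCT116 knockdown and control cells (edgeR adjusted p = 0.00054). GRHL3 had no count in RKO either, against 1.58 and 2.05 FPKM in HCT116 knockdown and control cells.

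Promoters of junction genes are known for E-boxes, the letters CAGGTG or, on the other strand, CACCTG, to which the repressors of the SNAI and ZEB families bind. Of the 57 genes 26 had a promoter window in the RefSeq table (build GRCh38.p14), and the 250 bases before the start were searched on both strands. At least 1 window of 12 of these 26 genes (46.2%) held the motif, against 20.6% of all 27305 genes with a window. Counted by window rather than by gene, the shares were 35.1% and 17.5%. The motif was in 6 of 10 matched genes that were on in both HCT116 libraries and under 1 FPKM in both RKO libraries, and in 5 of 8 matched genes that were on in HCT116 and not under 1 FPKM in both RKO libraries. A match is a run of letters and not a bound site. Windows of 4 genes are shown with the motif in capitals because they held more than 1 match, CLDN7, CRB3 and JUP from the genes silent in RKO and DSG2 from those still measured there. DSP, also still measured in RKO, had a window with 2 matches that is not shown.
CLDN7 at chr17:7262479-7262728, minus strand, with 4 matches:
CLDN7: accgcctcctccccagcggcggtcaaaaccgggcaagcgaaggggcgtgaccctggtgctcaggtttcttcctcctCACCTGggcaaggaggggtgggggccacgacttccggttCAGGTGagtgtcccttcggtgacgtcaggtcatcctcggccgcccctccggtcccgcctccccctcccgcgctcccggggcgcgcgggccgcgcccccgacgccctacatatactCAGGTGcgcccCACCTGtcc
CRB3 at chr19:6464021-6464270, plus strand, with 5 matches:
CRB3: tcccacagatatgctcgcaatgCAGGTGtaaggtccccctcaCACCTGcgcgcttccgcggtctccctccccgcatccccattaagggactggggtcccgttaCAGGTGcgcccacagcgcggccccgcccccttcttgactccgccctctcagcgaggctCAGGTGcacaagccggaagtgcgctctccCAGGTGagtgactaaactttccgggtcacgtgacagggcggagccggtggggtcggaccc
JUP at chr17:41785977-41786226, minus strand, with 2 matches:
JUP: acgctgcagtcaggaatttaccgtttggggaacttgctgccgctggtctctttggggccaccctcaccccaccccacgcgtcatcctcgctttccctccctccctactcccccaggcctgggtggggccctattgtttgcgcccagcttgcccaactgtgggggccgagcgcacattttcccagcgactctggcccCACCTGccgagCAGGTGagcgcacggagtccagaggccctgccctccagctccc
DSG2 at chr18:31497927-31498176, plus strand, with 2 matches:
DSG2: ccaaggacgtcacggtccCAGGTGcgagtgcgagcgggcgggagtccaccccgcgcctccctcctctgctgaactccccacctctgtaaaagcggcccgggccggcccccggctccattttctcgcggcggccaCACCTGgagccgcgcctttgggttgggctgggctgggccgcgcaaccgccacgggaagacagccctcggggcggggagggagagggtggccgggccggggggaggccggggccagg

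Among measured genes of the set, differences of log2(FPKM + 1) between EZH2 knockdown and control cells were largest for KRT81, KRT80, KRT7 and JUP. KRT81, KRT80 and KRT7 were higher in RKO knockdown cells, and JUP was lower in HCT116 knockdown cells. KRT79, too low to be measured by the filter, differed by 1.27 in RKO. A gene was counted when its log2(FPKM + 1) in the knockdown library was at least 1.2-fold above or below the control library, a fold that the study used for higher genes and that is applied here in both directions. In RKO 5 of the 41 measured genes were higher and 4 lower, against 22.7% higher and 10.9% lower among all 6139 measured genes. In HCT116 3 were higher and 6 lower, against 12.7% higher and 9.66% lower among all measured genes. None was higher in both lines (4.01% of all measured genes were) and 1, CDH24, was lower in both (2.66%). In both RKO libraries 22 of the 41 genes were under 1 FPKM, where the pseudocount holds a difference near 0. The counts were therefore repeated over genes with a mean of at least 1 FPKM in the line itself. This filter was applied to all 57 genes, so it adds genes as well as removing some. In RKO 20 genes of the set passed, 5 higher and 4 lower, against 25.8% and 12.8% of all 5151 such genes. The 5 higher genes were not the same as before, since KRT15 dropped out and KRT79 came in. KRT15, at 0.41 and 0.09 FPKM in RKO knockdown and control cells, had counted as measured only through its level in HCT116. In HCT116 47 genes passed, 5 higher and 7 lower, against 13.3% and 9.85% of all 6263 such genes. Scaling the libraries by the median of ratios instead moved the median of all measured genes in RKO to -0.07. In RKO 4 genes of the set were then higher and 8 lower. The share of all measured genes past the threshold was not counted under this scaling, so the shift is not a result about the set.

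No gene of the set was called for a change common to both lines. edgeR's quasi-likelihood test of the knockdown with the line as a term called 0 of the 7433 genes (0.0%) at an adjusted p of 0.05. limma called 0 of 6139 genes, and DESeq2 called 7 genes, none of them in the set. At an unadjusted p of 0.05, 280 of all genes and 3 of the set, JUP, KRT79 and KRT81, passed in edgeR. In DESeq2, 2 of the set, JUP and KRT81, did. Each of these rests on 1 line and does not show a change shared by both. JUP had 2 and 6 counts in RKO knockdown and control cells, KRT81 had 2 and 0 counts in those of HCT116, and KRT79 had no count in HCT116.

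**Figure D3:**
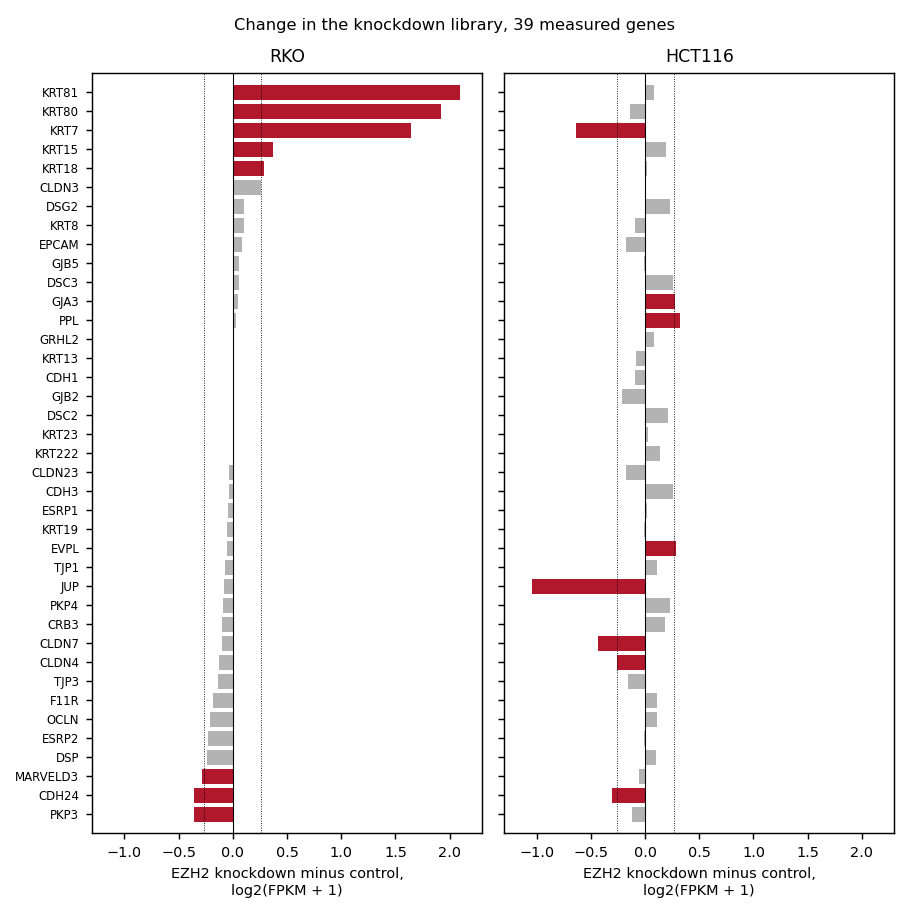
Difference of log2(FPKM + 1), EZH2 knockdown minus control, in RKO (left) and HCT116 (right) for 39 of the 41 measured genes, with 1 library a side. Dotted lines mark 1.2-fold and red bars pass it: 8 genes in RKO, led by KRT81, KRT80 and KRT7 (higher), and 8 genes in HCT116, led by JUP (lower).

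In RKO the measured genes with the largest rise in log2(FPKM + 1), KRT81, KRT80 and KRT7, are keratins that lie close together. KRT80, KRT7, KRT86 and KRT81 follow one another on chromosome 12 with no coding gene between them. KRT80 had 1493 and 344 counts in RKO knockdown and control cells, and the ratio of counts, scaled for depth, was 4.39 (exact binomial 95% interval 3.91 to 4.96, counting error only). KRT7, a type II keratin of ducts and glands, was at 11.1 and 2.86 FPKM in RKO knockdown and control cells, with a count ratio of 3.40 (2.71 to 4.30). KRT81 had 278 and 38.6 expected counts in RKO knockdown and control cells, with a ratio of 7.22 (5.15 to 10.4). KRT86, which was too low to be measured by the filter, had 25.5 expected counts in RKO knockdown cells and none in RKO control cells. KRT81 shares 37.6% of its stretches of 50 bases with KRT86, so the split of reads between these paralogs is uncertain, whereas KRT80 and KRT7 share 0.364% and 0.399% of theirs with any other gene. KRT79, further along the chromosome, had 100.02 and 19 expected counts in RKO knockdown and control cells, with a ratio of 5.33 (3.24 to 9.22). The intervals of all these genes lay above 1.2.

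The keratin pair at the end of this series differed less. KRT18 was at 188 and 154 FPKM in RKO knockdown and control cells, a difference of 0.29 on the log2(FPKM + 1) scale, which was 0.13 and under the threshold with median-of-ratios scaling. KRT8 was at 7.63 and 7.05 FPKM in RKO knockdown and control cells, with a count ratio of 1.08 (0.907 to 1.29). KRT15, on chromosome 17, had 16 and 3 counts in RKO knockdown and control cells, with a ratio of 5.40 (1.55 to 28.9). In HCT116 none of these 5 chromosome 12 keratins was past the threshold on the higher side. KRT7 was lower, with 2.42 FPKM in HCT116 knockdown cells against 4.33 FPKM in HCT116 control cells, a difference of -0.64 on the log2 scale and a count ratio of 0.539 (0.396 to 0.728). KRT80 was at 1.25 and 1.48 FPKM in HCT116 knockdown and control cells, with a count ratio of 0.843 (0.621 to 1.14). KRT81, KRT86 and KRT79 were at or under 0.13 FPKM in both HCT116 libraries.

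**Figure D4:**
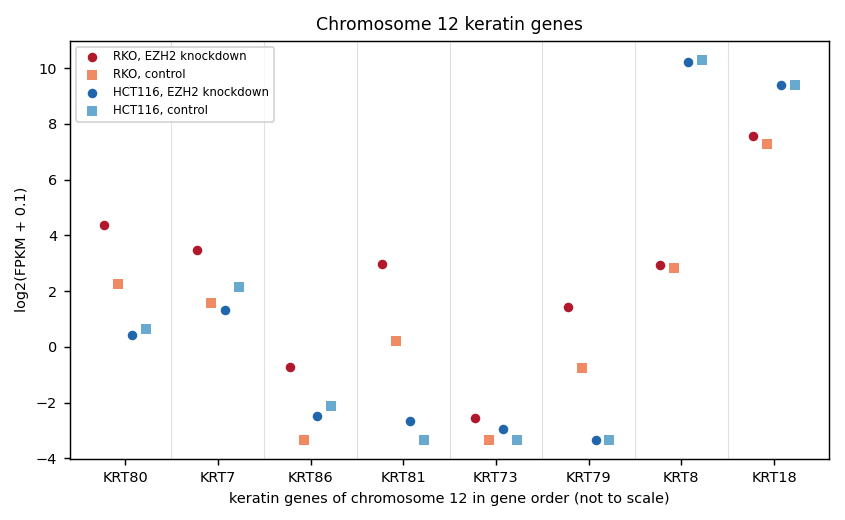
Level of the 8 keratin genes of chromosome 12 in the table, as log2(FPKM + 0.1), in gene order (distances not to scale), in the 4 libraries. In KRT80, KRT7, KRT86, KRT81 and KRT79 the RKO knockdown library (dark red circles) lies above the RKO control library (orange squares), while for KRT8 and KRT18 the knockdown and control points of a line lie close together.

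In HCT116 the largest difference among the measured genes of the set was in JUP. It was at 71.6 FPKM (4090 counts) in HCT116 knockdown cells, against 148 FPKM (8465 counts) in HCT116 control cells, a difference of -1.04 on the log2 scale and a count ratio of 0.487 (0.469 to 0.506). No stretch of 50 bases of JUP is shared with another gene. JUP had 2 and 6 counts in RKO knockdown and control cells, too few to compare. The claudins CLDN7 and CLDN4 were lower in HCT116 knockdown than control cells, with differences of -0.43 and -0.26 on the log2 scale and count ratios of 0.729 (0.679 to 0.783) and 0.831 (0.779 to 0.886). CLDN4 lay at the threshold of 1.2-fold, while its neighbour CLDN3 differed by 0.01.

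The genes higher in HCT116 knockdown cells were the plakins PPL and EVPL and the connexin GJA3, by small margins. PPL was at 20.4 and 16.1 FPKM in HCT116 knockdown and control cells, with a count ratio of 1.27 (1.19 to 1.35), and its partner EVPL had a ratio of 1.24 (1.16 to 1.32). GJA3 had a ratio of 1.25 (1.11 to 1.42). CDH3 and DSC3 stood just under the threshold at 0.26 each on the log2 scale. The intervals of PPL, EVPL and GJA3 all included 1.2. E-cadherin and EPCAM did not pass the threshold in HCT116, where CDH1 was at 23.7 and 25.3 FPKM and EPCAM at 156 and 177 FPKM in knockdown and control cells.

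The genes lower in RKO knockdown cells included PKP3, CDH24 and MARVELD3, all above 1 FPKM in RKO. PKP3 had a count ratio of 0.754 (0.655 to 0.868) in RKO and 0.917 (0.855 to 0.983) in HCT116. MARVELD3 had 55.4 and 75.2 expected counts in RKO knockdown and control cells, with a ratio of 0.743 (0.515 to 1.07), so its difference is within counting error. DSP was next, at -0.23 on the log2 scale and inside 1.2-fold. CDH24, the only gene lower in both lines, was at 10.98 and 14.3 FPKM in RKO knockdown and control cells (count ratio 0.769, 0.697 to 0.848) and at 7.29 and 9.23 FPKM in HCT116 knockdown and control cells (count ratio 0.796, 0.700 to 0.905). The change common to both lines was not called for CDH24 (edgeR adjusted p = 0.81). Of the genes nearly silent in RKO control cells, EPCAM, CDH1, CDH3, CLDN4, CLDN7, JUP, DSC2, PPL, KRT19, KRT23, ESRP1 and GRHL2 were under 0.2 FPKM in the RKO knockdown library as well. KRT15 and KRT86, which were under 0.1 FPKM in RKO control cells, were at 0.41 and 0.51 FPKM in RKO knockdown cells.

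Other genes of the same pathways were read from lists that the choice of the 57 genes did not include. Of 38 regulators and surface genes of epithelia, 29 were in the table and 28 were tested, of which 25 were lower and 2 (OVOL2 and FOXA1) higher in RKO. Among all 7433 genes tested, 37.5% were lower and 27.0% higher. The largest differences were in MAL2, S100A14, SPINT2 and ST14. MAL2, a protein of apical transport, was listed at 0 in both RKO libraries, against 76.7 and 97.1 FPKM in HCT116 knockdown and control cells. The membrane protease gene ST14 was at 0 and 0.02 FPKM in RKO knockdown and control cells, against 63.7 and 59.5 FPKM in those of HCT116, and its inhibitor SPINT2 was at 1.61 and 1.21 FPKM in RKO against 161 and 159 FPKM in HCT116. S100A14 was at 0.10 and 0.20 FPKM in RKO knockdown and control cells, against 69.8 and 114 FPKM in those of HCT116. The median difference of log2(FPKM + 1) was -2.26 over its 29 genes in the table.

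Membrane and plaque partners of junctions gave mixed calls. Of 20 listed symbols of adherens junction partners, some of them older names of the same genes, 6 were in the table. Of these, 3 were lower and 1 higher in RKO, against 37.5% lower and 27.0% higher among all 7433 genes tested. NECTIN3 was at 4.36 and 3.56 FPKM in RKO knockdown and control cells, against 40.0 and 54.6 FPKM in those of HCT116, and PLEKHA7 and IQGAP1 were lower as well. The β-catenin gene CTNNB1, whose protein binds the cadherin tail, was not called (edgeR adjusted p = 0.28), with 121 and 126 FPKM in RKO knockdown and control cells, against 138 and 128 FPKM in those of HCT116. Of 29 listed symbols of tight junction plaque and polarity partners, again with some older names, 20 were in the table and tested. Of these, 10 were lower and 6 higher in RKO, against the same 37.5% and 27.0% of all genes tested. Whether either list differed from all genes was not tested. CXADR, a junctional receptor, was at 0.69 and 0.23 FPKM in RKO knockdown and control cells, against 11.99 and 12.4 FPKM in those of HCT116, and AMOTL1, MAGI1 and CGNL1 followed. The median difference was -0.82 over the adherens junction list and -0.75 over the tight junction list.

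Genes of the mesenchymal state were called in both directions. Of 24 regulators and mesenchymal genes 16 were in the table and 15 were tested. RKO was lower for 9 and higher for 5 of them, against 37.5% lower and 27.0% higher among all 7433 genes tested. Whether the list differed from all genes was not tested. S100A4 was at 1.33 and 0.22 FPKM in RKO knockdown and control cells, against 402 and 398 FPKM in those of HCT116, and the membrane linker MSN was at 0.66 and 0.16 FPKM in RKO against 85.1 and 77.0 FPKM in HCT116. The receptor gene AXL was higher, at 136 and 217 FPKM in RKO knockdown and control cells, against 10.52 and 10.7 FPKM in those of HCT116. Named here after their values were seen, the filament gene VIM was lower in RKO, at 0.60 and 0.37 FPKM in knockdown and control cells, against 6.37 and 3.80 FPKM in those of HCT116. ZEB1, a repressor of E-cadherin, was called higher in RKO (edgeR adjusted p = 0.026). It was at 14.97 and 1.84 FPKM in RKO knockdown and control cells, against 1.36 and 1.02 FPKM in those of HCT116.

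**Figure D5:**
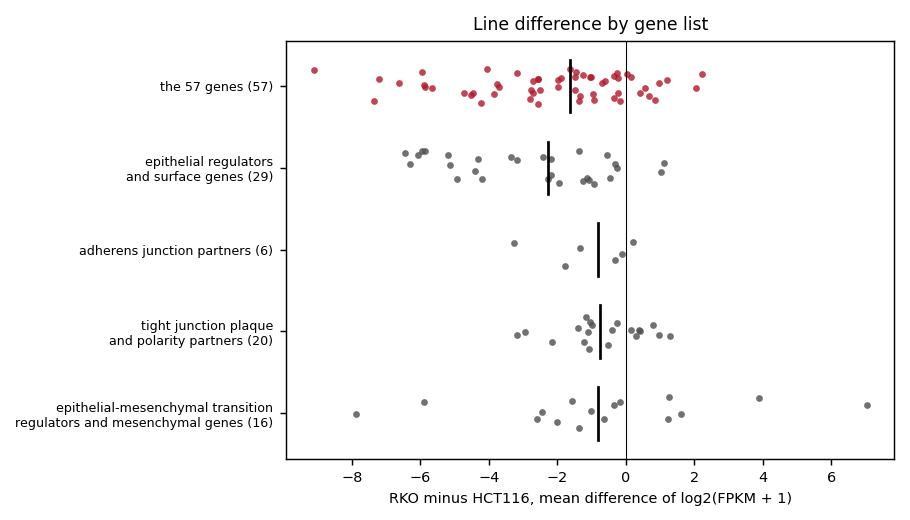
Difference of log2(FPKM + 1), RKO minus HCT116, averaged over the knockdown and the control pair of libraries, for the 57 genes (red) and the listed genes of the 4 partner lists (grey), with the number of genes in the table in brackets and the median as a bar. The medians over all genes in the table are -1.63 for the 57 genes, -2.26 for epithelial regulators and surface genes, -0.82 for adherens junction partners, -0.75 for tight junction partners and -0.83 for mesenchymal genes.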

How the data were processed

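Messenger RNA of 4 libraries, 1 per line and hairpin, was sequenced on an MGISEQ-2000 instrument from TruSeq libraries of Trizol RNA. The authors used Bowtie for mapping, then deposited FPKM values and RSEM expected counts per gene. The submitters' processing notes name Bowtie2, BWA, hg19 and GRCh37, whereas the methods name a mouse build. The build was not settled, and tool versions are not given in the sources used here. The authors' log2 ratio columns, knockdown over control, were not used. RSEM shares reads between similar genes, and strand use was not stated. In the table, 13 symbols turned into dates were restored by gene ID. The members and lists were chosen with earlier results of these data known.

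Counts were rounded and tested with edgeR 4.0.16 (TMM, quasi-likelihood, count of at least 10 in at least 2 libraries, line and hairpin as terms, 1 residual degree of freedom, Benjamini-Hochberg over all genes). The labels do not say whether cultures were separate, and p-values cover only the spread of these libraries, which may be technical. Within a line, log2(FPKM + 1) was compared with no test. Count ratios were scaled for depth, with exact binomial 95% intervals that cover counting error only. Alternatives were limma 3.58.1, DESeq2 1.42.0, median-of-ratios scaling, other pseudocounts, filters and folds, and a subtracted GC trend (lowess, span of 0.3). Shared sequence was counted over GENCODE transcripts, gene order and promoters were from RefSeq (GRCh38.p14), and no other coordinates are given. Values in every library are given for genes of at least 10 FPKM in any library, the 5 largest rises and falls per line, the 10 largest line differences each way, genes changed alike in both lines and the 2 highest of each class. Up to 4 genes of each partner list are named by size of line difference. Some genes that this rule takes are left out of the text and plots and are not reported here, although they count in the totals.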

Additional observations from a re-analysis of the deposited data

Results flagged for a closer look

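KRT7 moved in opposite directions in the lines: the difference of log2(FPKM + 1), EZH2 knockdown minus control, was 1.64 in RKO and -0.64 in HCT116. With 1 library per group, this contrast between RKO and HCT116 was not tested.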

How the results depend on the processing

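The line difference was the more stable result. Across 7 other settings, from 33 to 42 genes of the set were called lower in RKO against 41 as reported. Genes called higher in RKO numbered 4 with limma on log2(FPKM + 1) and 4 with limma on log2(FPKM + 0.1), against 7. limma tested only measured genes, which leaves out CDH20 and KRT79, and OCLN lost its call. The count of 33 lower genes came from limma as well, under the same filter. The common knockdown change had 0 genes of the set in all 7. Counts within a line depended on the threshold, and the cause was not tested unless named. Genes higher in HCT116 (3 as reported) were 6 with a pseudocount of 0.1, 6 with no filter, 5 with the filter on HCT116 alone (chosen after seeing the data), 0 at a fold of 1.5 and 0 when the whole count interval had to lie beyond 1.2-fold, a rule chosen after seeing the data. Genes lower in HCT116 (6) were 2 at 1.5-fold and 3 by the interval. Genes higher in RKO (5) were 9 with a pseudocount of 0.1, 3 with a mean of at least 5 FPKM, which tests fewer genes, and 3 at 1.5-fold. Genes lower in RKO (4) were 12 with a pseudocount of 0.1, 8 with median-of-ratios scaling, 1 at 1.5-fold, 7 with the GC trend subtracted and 1 by the interval. Apart from the filter on the line itself, the shares of all genes at these within-line settings were not counted. These counts are therefore not a result about the set. The GC setting gives genes with no count in RKO, such as DSC2, a value by its construction. No called gene changed sign, but line differences that were not called did: PKP4 was 0.03 as reported and -0.02 with median-of-ratios size factors, TJP1 was 0.09 and -0.25 with limma, and KRT7 was 0.68 on log2(FPKM + 1) and -0.47 between the control libraries alone. The labels give no replicate numbers. The line term sets each knockdown against its own control, and without it the common change had 0 genes as well. With 1 library per group, small changes within a line cannot be separated from variation between cultures, and genes with few counts in RKO have only bounds.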
